A study of Homo sapiens with 33 samples.

Results

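The comparison set an induced hairpin against ALK, called A5, beside its mutated form, A5M, in TS cells after 84 h. TS is a subclone of Sup-M2, a human line of anaplastic large cell lymphoma (ALCL), a lymphoma of T-cell origin. The comparison rests on the 3 arrays titled A5 and the 3 titled A5M, all with doxycycline, out of 33 arrays in the series, and all probe sets of the table entered the filter on low signals. TS cells of both groups carried a lentiviral doxycycline-responsive repressor marked with DsRed and a second lentivirus that encodes a short hairpin RNA and GFP. The A5M hairpin is the A5 hairpin in mutated form. Both groups received doxycycline at 1 microg/ml for 84 h, so the inducer stands on both sides of the comparison. The cells had been sorted for red and green fluorescence after a short induction, sorted again to remove cells that were green without inducer, and expanded. A5 and A5M cells are therefore different transduced and sorted populations, and a difference between the populations cannot be told apart from the effect of the hairpin sequence in this comparison alone. The 3 arrays of A5 cells kept for 84 h without doxycycline served as a further control, and no A5M cells without doxycycline are among the groups analysed here. TS cells with A5 at 72 h, 3 arrays with doxycycline and 3 without, share no array with the 84 h groups and gave the same genes another reading.

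ALK encodes a receptor tyrosine kinase that normal lymphocytes do not express. In ALK-positive ALCL a chromosome rearrangement fuses its kinase domain to a partner, most often the nucleolar protein nucleophosmin (NPM1), and the fusion kinase is constantly active. It is known to drive STAT3, ERK and PI3K-AKT signalling, and ALCL cells depend on it for growth. The same kinase activity is known to hold many T-cell genes down while CD30, the interleukin-2 receptor alpha chain and granzyme B are on. Comparing a matching with a mutated hairpin asks which transcripts follow the loss of ALK when the vector, the inducer and the production of a hairpin are shared.

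Total RNA was hybridized to Affymetrix human expression arrays, and the values are MAS5 signals, linear intensities of probe sets. All differences below are A5 minus A5M in log2(signal + 11), a scale on which changes of genes with low signals come out too small. The ± beside a difference is limma's standard error, and each group has 3 arrays, a number that limits the precision. A gene was called at a Benjamini-Hochberg adjusted p below 0.05 over 9097 genes. The fit held 21 arrays, 6 of them of another ALCL line, Su-DHL1, which share in the filter on low signals and in the estimate of the spread. The labels do not say that replicate arrays came from separate cultures, and the spread behind each p-value is that of these samples and may be technical. Across probe sets the log2 signals correlated at r = 0.976 to 0.978 among the A5 arrays, 0.972 to 0.98 among the A5M arrays and 0.935 to 0.945 between the groups. The ratio of 3' to 5' control probe sets of ACTB, which depends on RNA quality and labelling, was 1.27 ± 0.0232 (SD) with A5, 1.52 ± 0.0767 with A5M and 1.54 ± 0.0479 in uninduced cells. The A5 and A5M ratios did not overlap. For GAPDH the same ratio was 0.861 ± 0.0322 with A5 and 0.889 ± 0.0652 with A5M, and these overlapped.

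With the ALK hairpin, 2120 genes were called higher (23.3% of those tested) and 1822 lower (20.0%), together 43.3% of the genes. Counts of list members called in this comparison are to be read beside these shares. The change reached 2-fold for 589 higher and 507 lower genes, and 4-fold for 102 and 97. The highest differences belonged to S100A4, a calcium-binding protein, SPP1, osteopontin, and CD52, a lymphocyte surface protein. The lowest belonged to CALML4, a calmodulin-like protein, GINS2, a DNA replication gene, and HELLS, a chromatin remodeller. The median difference over all genes was 0.06. The 3 A5 signals and the 3 A5M signals of a gene did not overlap for 48.6% of all genes tested, 1989 of the 2120 and 1703 of the 1822 called genes among them. With the ACTB ratio as a covariate 2400 genes were called in place of 3942. List counts given with that covariate are to be read beside 2400 of 9097 genes, both directions together, and not beside 23.3% and 20.0%. Since the ratio moved with the groups, its part in single results was not tested beyond the counts given with the groups of genes below.

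**Figure D1:**
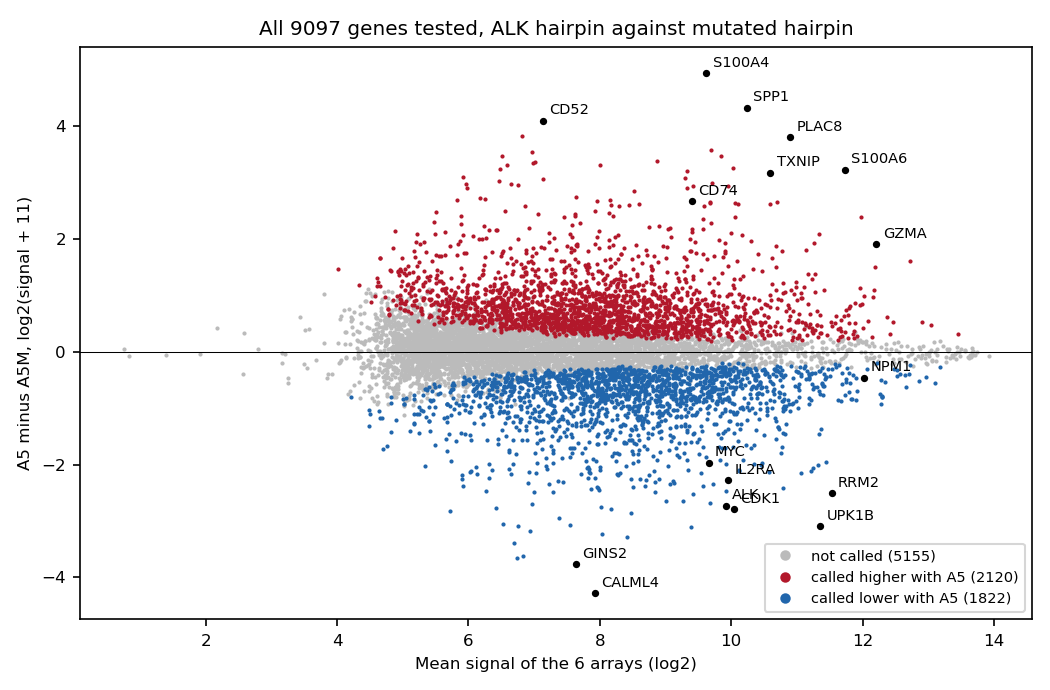
Each point is 1 of the 9097 genes tested; the horizontal axis is the log2 of the mean signal over the 6 arrays and the vertical axis the difference, A5 minus A5M, in log2(signal + 11). Red points are the 2120 genes called higher with A5, blue points the 1822 called lower and grey points those not called; labelled genes are named in the text.

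ALK, the target, is read by probe set 208212_s_at, with signals of 201.1, 253.9 and 289 with A5 and 1667.2, 1652 and 1739 with A5M. The groups lay far apart, and 14.7% of the A5M signal was left with A5 (difference -2.73 ± 0.11, limma adjusted p = 1.52e-15). By its other probe set, 208211_s_at, the signals were 151.3, 130.7 and 130.7 against 431.9, 389.3 and 384.2, and 34.2% was left. The probe sets therefore put different sizes on the loss, in the same direction. The sources used here do not give the positions of the probe sets or of the hairpin's site in ALK. A5M cells gave an ALK signal 0.27 ± 0.11 below uninduced A5 cells on the log2 scale (limma adjusted p = 0.149). NPM1, the usual fusion partner and itself a gene of ribosome assembly, gave 3600.6, 3568.4 and 3367.1 with A5 and 4985.3, 4982.9 and 4510.5 with A5M. It fell by 0.46 ± 0.07 on the log2 scale (limma adjusted p = 1.60e-05), and the difference was -0.26 with a limma adjusted p of 0.0922 once the ACTB ratio was a covariate.

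Of 18 tested genes for ALK, NPM1 and adaptors that bind the kinase, 4 were lower, ALK and NPM1 included, and 2 higher, which is 22.2% and 11.1% beside 20.0% and 23.3% of all genes, and the list's median was 0.01. GAB2, a docking protein, was lower (-0.73 ± 0.13, limma adjusted p = 4.27e-05). PTPN11, the phosphatase SHP2, was lower as well (-0.34 ± 0.09, limma adjusted p = 0.00444). PIK3R1, the regulatory subunit of PI3-kinase, was higher (0.63 ± 0.16, limma adjusted p = 0.00271), as was SOS1, an exchange factor for RAS (0.36 ± 0.14, limma adjusted p = 0.0405). STAT3, JAK3, SHC1, GRB2 and PLCG1, which carry the signal onward, were not called, with differences of 0.01, 0.22, 0.17, -0.11 and -0.02.

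**Figure D2:**
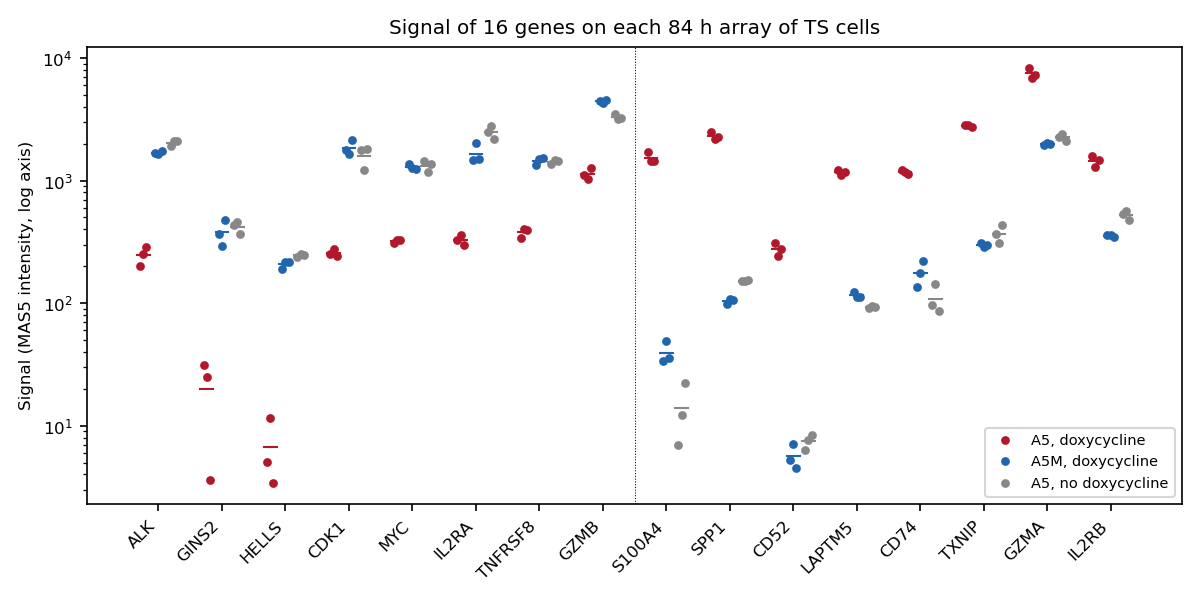
Signal (vertical axis, logarithmic) of 16 genes on each 84 h array: red for A5 with doxycycline, blue for A5M with doxycycline, grey for A5 without doxycycline; bars are means of 3 arrays. The 8 genes on the left were lower with A5 and the 8 on the right higher, with no overlap of red and blue points for any of them.

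STAT3 is the transcription factor most tightly tied to ALK in these lymphomas. Of 23 tested STAT3 feedback and target genes, 12 fell and 6 rose, and the median was -0.44. The cytokine feedback genes SOCS3 (-0.84 ± 0.15) and CISH (-1.50 ± 0.12), the AP-1 factors BATF3 (-1.71 ± 0.10) and JUNB (-0.74 ± 0.08) and the kinase gene PIM1 (-0.60 ± 0.10) were among those that fell. The 6 that rose included PRF1, PIM2, MUC1 and IL21R (0.81, 0.64, 0.78 and 0.80), so the list did not move as 1 block. With the ACTB ratio as a covariate 10 were lower and 1 higher. CEBPB, a C/EBP transcription factor, gave 2621.9, 2622.1 and 2593 with A5 and 4368, 4433.8 and 5342.6 with A5M and fell by 0.84 ± 0.09 on the log2 scale (limma adjusted p = 8.50e-08). BCL2A1, an antiapoptotic BCL2 relative, gave 749.8, 605.8 and 529.2 with A5 and 1505.2, 1727.4 and 1389.3 with A5M (-1.29 ± 0.11, limma adjusted p = 1.94e-09). Neither gene's groups overlapped. The study itself picked CEBPB and BCL2A1 from these profiles, so their direction is not independent evidence.

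The surface and effector genes by which ALCL is recognised divided. TNFRSF8, which encodes CD30, gave 339.7, 401.5 and 391.3 with A5 and 1340.4, 1485.5 and 1522.4 with A5M (-1.91 ± 0.09, limma adjusted p = 2.49e-14). IL2RA, the alpha chain that gives the interleukin-2 receptor its high affinity, gave 329, 360.8 and 299.2 with A5 and 1462.5, 2013.9 and 1496.9 with A5M (-2.28 ± 0.12, limma adjusted p = 2.58e-13). By these probe sets all A5 signals of both genes were far below all A5M signals. IL2RA's other probe set, 206341_at, gave 177.9, 193 and 246.5 with A5 and 311.9, 353.2 and 327.3 with A5M. By it the difference was -0.67, and 62.2% of the A5M signal was left. In the opposite direction, IL2RB, the signalling beta chain of the same receptor, gave 1586.5, 1293.3 and 1459 with A5 and 360, 360.4 and 346.8 with A5M (1.99 ± 0.11, limma adjusted p = 2.62e-13). ICOS, a costimulatory receptor, fell by 2.15 ± 0.14 on the log2 scale, and the chemokine gene CCL20 and the cytokine gene OSM differed by -1.45 ± 0.10 and -2.02 ± 0.32. Of 20 tested genes of the interleukin-2 and common gamma receptors, 7 were higher and 2 lower, with STAT6 (1.00 ± 0.09) and JAK1 (0.73 ± 0.09) among the higher. With the ACTB ratio as a covariate 3 were higher and 2 lower, and IL9R, called at 0.94, turned to -0.36 (adjusted p = 0.574).

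Genes of DNA replication were lower almost without exception: 34 of 35 tested members of a list of licensing and fork proteins fell, none rose, and the median was -1.68, against 20.0% lower among all genes. GINS1 and GINS2, subunits of the replicative helicase, led the list. GINS1 gave 43, 34.4 and 46.1 with A5 and 495.5, 547.5 and 406.5 with A5M (-3.24 ± 0.12, limma adjusted p = 5.30e-16). GINS2 gave 31, 24.8 and 3.6 with A5 and 365.6, 292.6 and 474.4 with A5M, with the A5 signals below the 40th percentiles of these arrays, 36.7 to 43 (-3.77 ± 0.26). Every subunit of the MCM helicase fell, from -1.12 for MCM6 to -2.52 for MCM2, which gave 189.7, 205.3 and 190.1 with A5 and 1180.1, 1248 and 1086 with A5M. Loading factors CDC6 (-1.57) and CDT1 (-2.16), the sliding clamp PCNA (-1.31) and the polymerase subunits POLA1 (-1.12) and POLE2 (-1.79) fell too. CHAF1A, a histone chaperone subunit, was the member not called (-0.39 ± 0.20, limma adjusted p = 0.115), whereas its partner CHAF1B fell by 2.82 ± 0.22 on the log2 scale. With the ACTB ratio as a covariate 33 of the 35 were lower. In bulk RNA, fewer cycling cells and less of these transcripts per cycling cell cannot be told apart.

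Replication genes are known targets of E2F factors, so the 250 bases before their RefSeq starts (GRCh38.p14) were searched on both strands for the E2F letters TTTCCCGC and TTTGGCGC. RefSeq starts were matched by symbol for 7461 of the 9097 genes. At least 1 of these motifs stood in 35.5% of the 31 replication genes with a matched start, in 5.93% of the genes called lower, 2.79% of those called higher, 3.99% of all tested genes and 1.93% of all 35116 windows. A match of letters is a description, not a bound site. Promoters of 3 genes from the bottom of the ranking that hold such letters are shown 5′ to 3′, with the motif in capitals. HELLS lies at chr10:94545538-94545787, plus strand, GINS2 at chr16:85688955-85689204, minus strand, and DTL at chr1:212035498-212035747, plus strand.
HELLS: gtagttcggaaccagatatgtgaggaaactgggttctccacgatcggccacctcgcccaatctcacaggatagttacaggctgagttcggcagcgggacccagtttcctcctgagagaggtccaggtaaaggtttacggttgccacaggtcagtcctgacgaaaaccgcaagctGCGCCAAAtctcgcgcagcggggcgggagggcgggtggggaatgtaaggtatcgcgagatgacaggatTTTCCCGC
GINS2: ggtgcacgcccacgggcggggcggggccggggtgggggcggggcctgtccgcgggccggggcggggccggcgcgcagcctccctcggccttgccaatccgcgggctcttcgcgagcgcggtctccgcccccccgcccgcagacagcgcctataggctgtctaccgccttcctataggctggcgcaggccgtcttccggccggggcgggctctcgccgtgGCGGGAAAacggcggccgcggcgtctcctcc
DTL: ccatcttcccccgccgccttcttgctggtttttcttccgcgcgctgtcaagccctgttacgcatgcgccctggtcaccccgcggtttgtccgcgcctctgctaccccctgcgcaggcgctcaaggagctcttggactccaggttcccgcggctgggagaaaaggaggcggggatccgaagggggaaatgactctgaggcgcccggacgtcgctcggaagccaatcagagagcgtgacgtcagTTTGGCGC
HELLS, a chromatin remodeller needed for DNA methylation, gave 5.1, 11.5 and 3.4 with A5 and 188.3, 216.2 and 217.9 with A5M (-3.65 ± 0.18, limma adjusted p = 5.70e-14). DTL, which steers replication factors to degradation, gave 45.8, 73.6 and 47.8 with A5 and 664.1, 638.1 and 577.9 with A5M (-3.28 ± 0.15, limma adjusted p = 1.34e-14). Both fell to low signals with A5, and neither group of 3 reached the other, a condition for naming them among the 15 lowest.

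Mitosis genes fell as uniformly, with 53 of 55 tested members lower, none higher and a median of -2.04. The 2 not called were INCENP (-0.73 ± 0.31, limma adjusted p = 0.0619) and CDC25B (-0.25 ± 0.12, limma adjusted p = 0.0903). CDK1, the kinase that starts mitosis, gave 252.8, 276.1 and 241.5 with A5 and 1765.9, 1640.2 and 2145 with A5M (-2.79 ± 0.13, limma adjusted p = 2.64e-14). Its partner CCNA2 (cyclin A) gave 44.3, 68.8 and 64.6 with A5 and 478.9, 454.4 and 443 with A5M (-2.76 ± 0.12), and AURKB, the kinase of the chromosomal passenger complex, gave 106.2, 90.3 and 44.9 with A5 and 599, 541.5 and 751 with A5M (-2.87 ± 0.18). CENPM, a centromere protein, had A5 signals of 11.2, 7.9 and 7.4 and A5M signals of 175.3, 220 and 197.2. For these genes the lowest A5M array lay above the highest A5 array several fold. The transcription factor FOXM1 (-2.69 ± 0.16), the proliferation marker MKI67 (-2.40 ± 0.10), the topoisomerase TOP2A (-2.34 ± 0.16) and the kinase PLK1 (-2.04 ± 0.16) were lower too. With the ACTB ratio as a covariate 53 of the 55 were lower.

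Late cell cycle genes are known for paired promoter elements, the cell cycle homology region, TTTGAA, and the CCAAT box bound by NF-Y. Among the 46 mitosis genes with a matched start, 56.5% held TTTGAA and 82.6% held CCAAT on either strand in the 250 bases before a start. Among all tested genes with a start the shares were 13.4% and 42.5%, among all windows 13.3% and 32.0%. Among the 31 replication genes CCAAT stood in 54.8% and TTTGAA in 0, which says only that these letters are not in those windows. CDK1 at chr10:60778081-60778330, plus strand, and CDC20, the activator of the anaphase ubiquitin ligase, at chr1:43358731-43358980, plus strand, hold both sets of letters. These are in capitals, matched on either strand. CDK1 has 2 starts, and the window shown was chosen by its matches. In it TTTGAA begins 161 bases and CCAAT 150 bases before the start. A match of letters is not a working paired element.
CDK1: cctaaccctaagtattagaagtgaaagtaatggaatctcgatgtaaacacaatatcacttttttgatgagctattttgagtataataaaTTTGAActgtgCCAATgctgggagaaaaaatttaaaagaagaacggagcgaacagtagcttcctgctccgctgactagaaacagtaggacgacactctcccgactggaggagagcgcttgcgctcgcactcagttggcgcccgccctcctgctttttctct
CDC20: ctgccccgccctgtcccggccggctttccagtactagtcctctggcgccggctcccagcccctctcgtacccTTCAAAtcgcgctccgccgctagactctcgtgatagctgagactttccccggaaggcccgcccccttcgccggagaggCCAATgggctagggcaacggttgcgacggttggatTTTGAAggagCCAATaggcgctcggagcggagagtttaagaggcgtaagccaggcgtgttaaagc
CDC20 gave 230.5, 265.3 and 212.6 with A5 and 1185, 1171.2 and 1481.8 with A5M (-2.38 ± 0.12, limma adjusted p = 4.81e-14), with no overlap.

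The genes that feed and control the cell cycle moved with it. Of 26 nucleotide synthesis genes 23 fell (median -0.96), led by RRM2, a subunit of ribonucleotide reductase, with 929.3, 891.7 and 786.8 with A5 and 4302.1, 5186.7 and 5609.2 with A5M (-2.51 ± 0.09, limma adjusted p = 5.30e-16), and thymidylate synthase TYMS (-2.12 ± 0.14). Of 19 G1 cyclins, kinases and E2F-RB factors 12 fell and 1 rose: the phosphatase CDC25A (-3.05 ± 0.24), cyclin E2 (CCNE2, -2.26 ± 0.22), E2F8 (-2.12 ± 0.21) and CDK4 (-1.19 ± 0.09) fell and RB1, the retinoblastoma gene, rose (0.72 ± 0.13). CCND2, CCND1 and CDK6 were not called (0.35, -0.58 and -0.22). Of 18 CDK inhibitors and quiescence genes 10 rose and 4 fell. CDKN1A, which encodes p21, gave 2410.7, 2434.4 and 2616.6 with A5 and 994.6, 1057.8 and 1139.1 with A5M (1.22 ± 0.10, limma adjusted p = 3.64e-10), and CDKN1B, p27, rose by 0.83 ± 0.12. The quiescence genes CCNG2 (1.69 ± 0.21), YPEL5 (1.51 ± 0.12) and TOB1 (0.94 ± 0.15) rose as well. CDKN3, a phosphatase, fell by 1.77 ± 0.16 on the log2 scale.

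Repair and chromatin genes followed the replication genes. Of 23 DNA repair genes 18 fell and 2 rose (median -1.08), with RAD54L and RAD51AP1, both of homologous recombination, lowest. RAD54L gave 5.1, 14.4 and 4.2 with A5 and 187, 193.4 and 275.9 with A5M (-3.62 ± 0.27, limma adjusted p = 7.14e-11), and RAD51AP1 gave 34.5, 26.1 and 30.7 with A5 and 337.8, 414.4 and 275 with A5M (-3.08 ± 0.18). The 2 that rose were ATM, the damage kinase (0.75 ± 0.17), and DDB2, a damage-binding protein and p53 target (0.68 ± 0.14). Of 23 chromatin genes of S phase 19 fell and 1 rose, and 12 were lower with the ACTB ratio as a covariate. The Polycomb methyltransferase EZH2 (-1.71 ± 0.14), the maintenance methyltransferase DNMT1 (-1.48 ± 0.14) and the histone chaperone ASF1B (-2.02 ± 0.13) fell, and the deacetylase HDAC1 rose, with 2477.8, 2392.5 and 2410.9 with A5 and 845.3, 890.5 and 823.3 with A5M. H2AC6, a histone H2A gene, moved the other way, from 191.9, 189.7 and 179.1 with A5M to 2281.9, 1730.2 and 1706.9 with A5 (3.26 ± 0.11). Its reading is uncertain, since histone genes have near-identical copies.

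MYC, which drives growth and ribosome production, gave 309.9, 327.6 and 330.3 with A5 and 1360.2, 1262.7 and 1252.9 with A5M (-1.97 ± 0.09, limma adjusted p = 3.26e-14), a 3.90-fold loss with no overlap. Of 29 genes of the MYC network and ribosome biogenesis 25 fell and 2 rose (median -0.90). Nucleolar factors such as NOLC1 (-1.69 ± 0.10), MRTO4 (-1.74 ± 0.19) and NOP16 (-1.61 ± 0.18) fell, and the MYC antagonists MNT (0.81 ± 0.10) and MXI1 (0.57 ± 0.12) were the 2 that rose. The ribosome itself did not move in that way: of 33 cytosolic ribosomal protein genes 1 was higher, RPS25 (0.28 ± 0.09), 1 lower, RPL3 (-0.27 ± 0.10), and the median was 0.00. RPL3 lost its call with the ACTB covariate, and both genes lost theirs with the 2 groups fitted alone and when single arrays were left out. Of 20 chaperones 16 fell (median -0.60), with HSPH1 (-1.41 ± 0.18) and the mitochondrial chaperonins HSPE1 (-1.37 ± 0.16) and HSPD1 (-0.63 ± 0.08) among them. HSPB1 rose (0.55 ± 0.08). Proteasome genes were lower in 11 and higher in 2 of 26 cases, with a median of -0.22 and 5 lower with the ACTB covariate. Of 38 oxidative phosphorylation genes 12 rose and 9 fell, close to the shares among all genes.

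**Figure D3:**
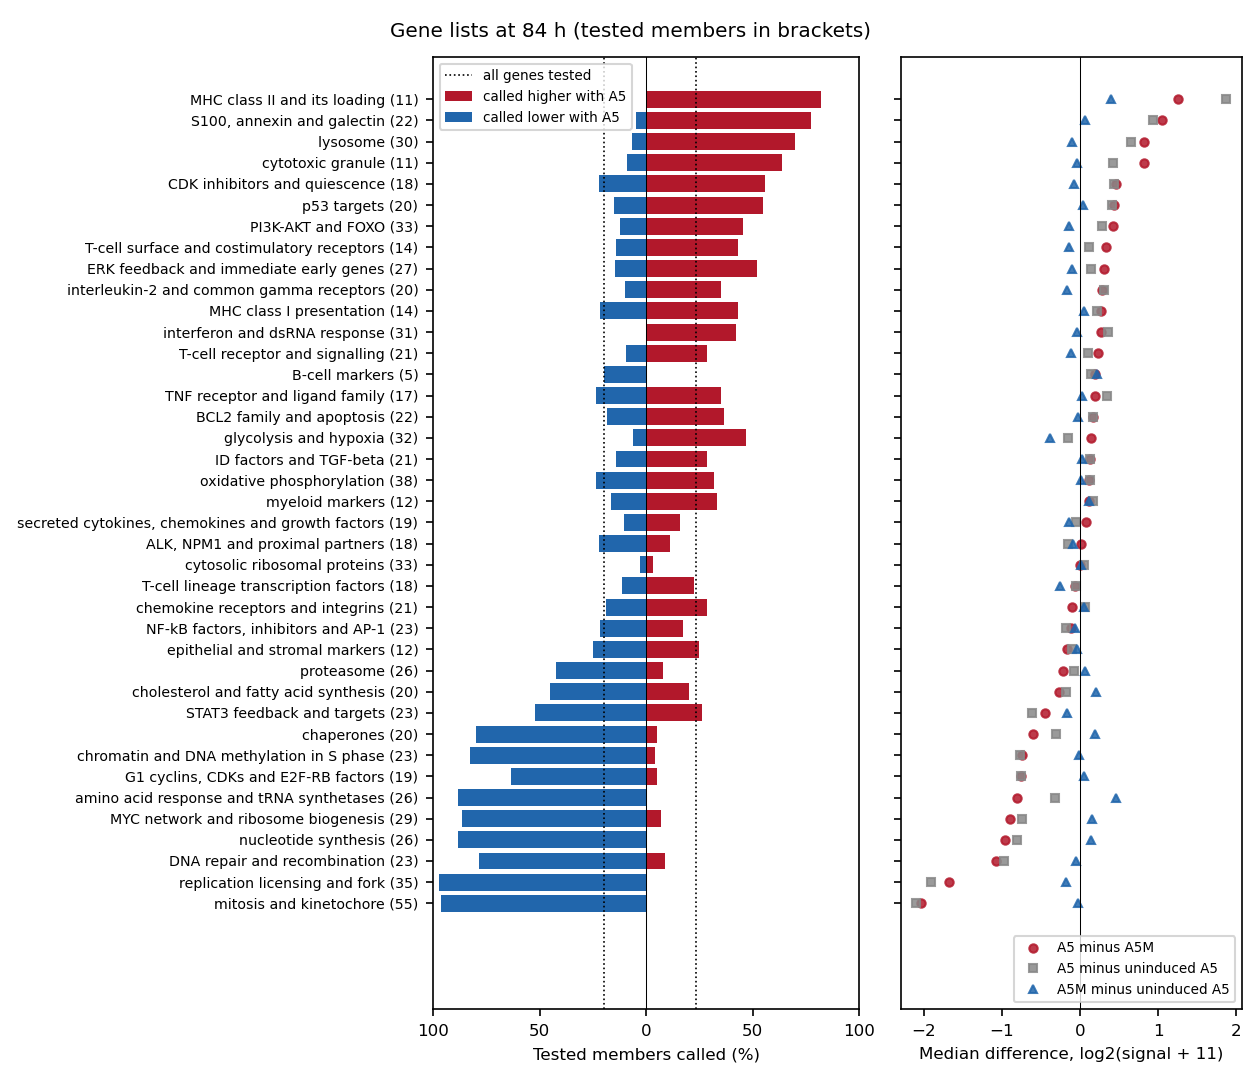
Left, the percentage of tested members of 39 gene lists called higher (red, to the right) or lower (blue, to the left) with A5 than with A5M, with dotted lines at 23.3% and 20.0%, the shares among all genes. Right, the median difference in log2(signal + 11) for A5 minus A5M (red circles), A5 minus uninduced A5 (grey squares) and A5M minus uninduced A5 (blue triangles); lists are ordered by the red circles, from mitosis (-2.04) to MHC class II (1.25).

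Several of the genes highest with A5 lay near or below the 40th percentile of the arrays with A5M. S100A4, a small calcium-binding protein of motile cells (203186_s_at), gave 1703.3, 1452.7 and 1448.5 with A5 and 33.8, 49.4 and 35.4 with A5M (4.94 ± 0.22, limma adjusted p = 9.79e-15). SPP1, osteopontin, a secreted matrix and cytokine-like protein, gave 2468.5, 2197.2 and 2256.7 with A5 and 98.7, 108.6 and 105.1 with A5M (4.33 ± 0.09, limma adjusted p = 4.73e-21). CD52, a surface glycoprotein of mature lymphocytes, gave 309.2, 241.2 and 273.8 with A5 and 5.3, 7.1 and 4.5 with A5M (4.10 ± 0.25, limma adjusted p = 2.39e-12). In each case all 3 A5 arrays were high and no A5M array came near them. The 15 highest were named only if their groups did not overlap, so the lack of overlap was fixed by that rule. Signals of CD52, GPR171, ITGB7, CDA and IFIT1 with A5M lay far below that percentile, so the size of their differences rests on the 11 that was added. For CD52 it was 5.39 with 1 added and 2.54 with 50 added. Other genes among the top 15 were GPR171, a G-protein-coupled receptor (3.82 ± 0.28), PLAC8 (3.81 ± 0.13), TRAF3IP3 (3.57 ± 0.19), AOAH, a hydrolase of bacterial lipid A (3.54 ± 0.30), CAPG, an actin-capping protein (3.48 ± 0.13), SIRPG, a receptor for CD47 on T cells (3.39 ± 0.16), and FUT7, the fucosyltransferase that makes selectin ligands (3.32 ± 0.20). CLIC3, a chloride channel family member, CDA, cytidine deaminase, and DBNDD1 followed with 3.37, 3.31 and 3.35. A5M signals of AOAH, CLIC3 and DBNDD1 were below the 40th percentile as well. With 50 added their differences were 2.26, 2.18 and 2.17.

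At the other end CALML4, a calmodulin-like protein (221879_at), gave 7.4, 29.6 and 9.1 with A5 and 460.5, 539.3 and 412.6 with A5M and had the lowest difference (-4.28 ± 0.25, limma adjusted p = 1.56e-12). Its A5 signals lay below the arrays' 40th percentiles, and with 50 added in place of 11 the difference was -3.00 against -3.01 for UPK1B. CALML4's other probe set, 64408_s_at, gave a smaller fall (-2.03). UPK1B, a uroplakin of bladder epithelium, had high signals with A5M and gave 572.9, 581 and 468.5 with A5 and 4357.8, 5212.7 and 4547.9 with A5M (-3.10 ± 0.11, limma adjusted p = 2.02e-16). RGS16, which shortens G-protein signals, gave 147.7, 125.3 and 120.4 with A5 and 1157.8, 1263.7 and 1199.7 with A5M (-3.10 ± 0.10). These 3 are not cell cycle genes. Lack of overlap was a condition for the 15 lowest named genes. ACTL8, an actin-like gene of testis, gave 12.2, 13.8 and 15.6 with A5 and 217.8, 207.4 and 178.7 with A5M (-3.09 ± 0.27), and A5M was itself above uninduced cells for it (1.53 ± 0.27, limma adjusted p = 7.21e-04). TACC3, a spindle protein, was among the 15 lowest too (-2.94 ± 0.21).

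S100 proteins, annexins and galectins bind calcium, membranes or sugars, and 17 of 22 rose while 1 fell (median 1.04). Among the S100 genes S100A6 gave 5103.4, 6696.8 and 6688.2 with A5 and 625.4, 600.4 and 706.1 with A5M (3.23 ± 0.12, limma adjusted p = 9.42e-16), S100A8 gave 7959.8, 6433.6 and 5985.4 with A5 and 1527.1, 1277.4 and 1060.3 with A5M (2.39 ± 0.15) and S100P rose by 2.47 ± 0.28. ANXA6 (1.77 ± 0.36), ANXA5 (1.41 ± 0.17) and LGALS1, galectin 1 (1.61 ± 0.10), rose too, and ANXA3 fell (-0.84 ± 0.10). LGALS3 was not called (-0.13 ± 0.20). With the ACTB ratio as a covariate 11 were higher and 1 lower.

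Of 30 lysosomal genes 21 rose and 2 fell (median 0.81). LAPTM5, found in lysosomal membranes of blood cells, gave 1213, 1112.5 and 1166.9 with A5 and 122.4, 112.5 and 113.1 with A5M (3.21 ± 0.12, limma adjusted p = 5.30e-16), a 9.25-fold difference. The protease CTSD gave 203.4, 163.9 and 170.4 with A5 and 40.1, 29.4 and 41.4 with A5M (1.99 ± 0.22). The membrane protein LAMP2 (1.64 ± 0.11), the proton pump subunits ATP6AP1 (1.70 ± 0.11) and ATP6V0D1 (1.18 ± 0.10), the saposin precursor PSAP (1.44 ± 0.12) and the lipase LIPA (1.32 ± 0.09) rose with them. The 2 that fell were the protease CTSL (-1.21 ± 0.10) and the cholesterol transporter NPC1 (-0.84 ± 0.09). With the ACTB covariate 17 were higher and 2 lower.

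MHC class II genes present antigen, and activated human T cells can switch them on; 9 of 11 rose and none fell (median 1.25). HLA-DRA gave 2644.7, 2634 and 2697.7 with A5 and 403.4, 406.5 and 464.1 with A5M (2.62 ± 0.14, limma adjusted p = 4.53e-13). CD74, the invariant chain that guides class II molecules, gave 1209.8, 1184.3 and 1122.5 with A5 and 136.6, 176.4 and 218.9 with A5M (2.67 ± 0.17, limma adjusted p = 7.26e-12). HLA-DRB1 (2.38 ± 0.14), HLA-DPA1 (1.80 ± 0.10) and the loading factor HLA-DMA (1.63 ± 0.17) rose with them. Probes for the HLA-DR beta genes can share transcripts of near-identical paralogs, and HLA-DRB4 was not called (-0.22 ± 0.31), nor was CIITA, the class II transactivator (0.30 ± 0.36). A5M cells were themselves above uninduced cells for 5 of the 11: HLA-DRA in uninduced cells gave 171.5, 214.4 and 281. Against uninduced cells the list's median was 1.87 with A5 and 0.39 with A5M.

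Class II promoters are known for a Y box, an inverted CCAAT. Of the 8 class II genes with a matched start, 87.5% held CCAAT on either strand, against 42.5% of all tested genes. HLA-DMA at chr6:32953098-32953347, minus strand and CD74 at chr5:150412911-150413160, minus strand are shown with these letters in capitals. HLA-DMA holds them inverted, as ATTGG, and CD74 holds them as CCAAT, not inverted.
HLA-DMA: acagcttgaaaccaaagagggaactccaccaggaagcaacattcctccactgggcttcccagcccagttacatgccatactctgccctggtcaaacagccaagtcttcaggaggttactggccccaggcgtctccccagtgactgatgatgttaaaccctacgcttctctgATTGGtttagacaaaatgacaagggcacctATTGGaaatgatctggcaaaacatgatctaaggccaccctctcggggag
CD74: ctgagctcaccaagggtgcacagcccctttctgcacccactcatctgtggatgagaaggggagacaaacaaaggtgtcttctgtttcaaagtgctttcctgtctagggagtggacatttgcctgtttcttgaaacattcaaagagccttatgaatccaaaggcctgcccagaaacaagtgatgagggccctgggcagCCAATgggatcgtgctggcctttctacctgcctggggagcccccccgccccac

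Class I genes moved less and in both directions. Of 14 tested, 6 were higher (42.9%) and 3 lower (21.4%), beside 23.3% and 20.0% of all genes. HLA-C (0.77 ± 0.09) and HLA-G (0.83 ± 0.11), whose probe sets can cross-read other class I genes, rose, and the immunoproteasome subunits PSMB8 (-0.83 ± 0.12) and PSMB9 (-0.41 ± 0.15) and the peptide transporter TAP2 (-0.73 ± 0.17) fell. Interferon and double-stranded RNA response genes were read as well, since a hairpin RNA is made in both groups. Of 31 tested, 13 rose and none fell, with a median of 0.26, and 8 rose with the ACTB covariate. IFIT1, which binds viral RNA, gave 118.8, 124.1 and 108.5 with A5 and 1.6, 5 and 5.8 with A5M (3.09 ± 0.27, limma adjusted p = 1.34e-09), and in uninduced cells 3, 4.3 and 6.7. IFIT5 (1.43 ± 0.29) and IFI44 (0.92 ± 0.21) rose less, and RSAD2 (0.99 ± 0.38, limma adjusted p = 0.036) lost its call with the ACTB covariate and when single arrays were left out. OAS1, EIF2AK2, IFIH1, RIGI and CXCL10 were not called (0.08, 0.18, -0.21, 0.23 and 0.04). A5M minus uninduced cells gave 1 higher, 1 lower and a median of -0.04 for the same list. The core of the interferon-stimulated response element, GAAANNGAA, stood before a start in 70.8% of the 24 list members with a matched start and 8.26% of all tested genes. IFIT1 at chr10:89392373-89392622, plus strand holds it in 2 places, in capitals.
IFIT1: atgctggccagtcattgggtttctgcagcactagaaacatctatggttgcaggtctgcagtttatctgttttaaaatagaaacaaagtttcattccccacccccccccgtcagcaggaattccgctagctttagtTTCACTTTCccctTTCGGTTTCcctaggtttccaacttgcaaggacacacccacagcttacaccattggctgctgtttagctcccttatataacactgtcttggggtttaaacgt

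T-cell genes gave a mixed picture. Of 21 T-cell receptor and signalling genes 6 rose and 2 fell, near the shares of all genes. PTPRC, the phosphatase CD45, gave 1353, 1186.5 and 906.9 with A5 and 680, 600.1 and 423.2 with A5M (1.01 ± 0.16, limma adjusted p = 1.02e-05), and the kinase FYN (1.03 ± 0.16), the receptor constant region TRBC1 (0.76 ± 0.18) and the exchange factor VAV1 (0.54 ± 0.10) rose as well. CD3D gave 1100.9, 1188.8 and 1369.2 with A5 and 915.3, 1037.5 and 1101.5 with A5M and was not called (0.26 ± 0.15, limma adjusted p = 0.169). Signals of CD2, CD3E, CD4, CD5 and CD8A, between 12.5 and 118.5 in the 6 arrays, were not called either. CD8B was called lower (-1.11 ± 0.44, limma adjusted p = 0.0465) and lost the call with the ACTB covariate and when single arrays were left out. Of 14 surface and costimulatory receptors 6 rose and 2 fell, the latter ICOS and CTLA4 (-0.75), and CD58, an adhesion ligand, rose by 1.70 ± 0.16. Among lineage factors SATB1, a chromatin organiser of T cells, gave 489.8, 538.1 and 461.5 with A5 and 141.8, 163.6 and 121.5 with A5M (1.73 ± 0.12, limma adjusted p = 1.95e-11). LEF1, a partner of beta-catenin, gave 69.9, 112.1 and 67 with A5 and 350.4, 350.5 and 404 with A5M (-2.04 ± 0.14, limma adjusted p = 1.21e-11). These moved in opposite directions, and IRF4 fell (-0.73 ± 0.12) while GATA3, TBX21, RUNX3 and ETS1 were not called (-0.07, -0.05, -0.10 and -0.24).

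Of 11 cytotoxic granule genes 7 rose and 1 fell. Granzyme A, GZMA, gave 8316.1, 6923.8 and 7245.8 with A5 and 1959, 2009.5 and 1990.3 with A5M (1.91 ± 0.08, limma adjusted p = 7.68e-15). Granzyme B, GZMB, gave 1114.1, 1026.3 and 1274.6 with A5 and 4479.6, 4287.2 and 4552.2 with A5M (-1.96 ± 0.09, limma adjusted p = 3.26e-14). The 2 granzymes thus moved in opposite directions by similar amounts, each without overlap. Perforin, PRF1 (0.81 ± 0.11), the granule proteoglycan SRGN (1.80 ± 0.10), the protease inhibitor CST7 (1.37 ± 0.10), granulysin, GNLY (0.93 ± 0.36), and NKG7 (0.65 ± 0.09) rose with granzyme A. In the TNF family, 6 of 17 rose (35.3%) and 4 fell (23.5%), beside 23.3% and 20.0% of all genes. TNFSF14 (LIGHT) gave 189, 183.1 and 216.9 with A5 and 46.5, 8.1 and 6 with A5M (2.96 ± 0.32), CD70 rose by 1.46 ± 0.13 and the death receptor gene FAS by 1.15 ± 0.18, while TNFRSF21 fell with CD30 (-1.30 ± 0.13). The chemokine receptor CCR1 gave 1746.2, 1362.3 and 1151.2 with A5 and 214.2, 229.1 and 207.4 with A5M (2.63 ± 0.13, limma adjusted p = 6.20e-14), and the integrin chains ITGB7 (3.48 ± 0.24) and ITGB2 (1.72 ± 0.15) and the selectin ligand SELPLG (1.65 ± 0.10) rose. CCR7 (-1.19 ± 0.14) and S1PR1 (-1.39 ± 0.22), both of lymphocyte recirculation, fell.

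Feedback genes of the ERK pathway did not fall as a group: 14 of 27 rose and 4 fell (median 0.30), 8 and 2 with the ACTB covariate. Dual specificity phosphatases DUSP4 (1.39 ± 0.24) and DUSP6 (1.00 ± 0.15), the inhibitors SPRY4 (1.29 ± 0.11) and SPRED2 (0.96 ± 0.10) and EGR1 (0.81 ± 0.20) rose. TRIB2, a pseudokinase, gave 1143.2, 1165 and 1089.4 with A5 and 112.8, 124.6 and 133.1 with A5M (3.09 ± 0.12, limma adjusted p = 5.30e-16), and PHLDA1 (2.21 ± 0.16) and the ETS factor ETV1 (2.17 ± 0.14) rose too. The 4 that fell were MYC, ETV4 (-0.78 ± 0.19), DUSP2 (-0.79 ± 0.18) and IER2 (-0.40 ± 0.09). The list therefore held large changes in both directions.

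In the PI3K-AKT and FOXO list 15 of 33 rose and 4 fell (median 0.42). TXNIP, an inhibitor of glucose uptake and a known FOXO and MondoA target, gave 2829.7, 2835 and 2730.3 with A5 and 311, 288.9 and 299.4 with A5M (3.18 ± 0.12, limma adjusted p = 4.61e-16). SGK1, an AKT-related kinase, gave 17.2, 11.5 and 17.7 with A5 and 193.1, 214.1 and 277.8 with A5M (-3.17 ± 0.15, limma adjusted p = 3.86e-14). Both changes were among the larger of all genes. Uninduced cells gave SGK1 signals of 720.5, 725.9 and 639, well above A5M, so the difference for this gene is larger against them (-4.74 ± 0.15). GABARAPL1, of autophagy (1.46 ± 0.22), PIK3CD, a PI3-kinase catalytic subunit (2.19 ± 0.29), FOXO3 (0.66 ± 0.20) and SESN1 (0.84 ± 0.13) rose. By its other probe set, 211230_s_at, PIK3CD differed by 0.41.

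Among 20 p53 target genes 11 rose and 3 fell (median 0.44). TP53I3, an oxidoreductase, gave 422.1, 475.1 and 468 with A5 and 118.6, 87.5 and 115.6 with A5M (1.99 ± 0.15, limma adjusted p = 9.12e-11), and with it rose CDKN1A, FAS, GDF15 (1.46 ± 0.40) and BAX (0.79 ± 0.18). MDM2 was not called (-0.14 ± 0.22), and GADD45A fell (-0.85 ± 0.18). Once the ACTB ratio entered as a covariate 8 of the 20 were higher and none lower, so the falls lost their calls. Of 22 BCL2 family and apoptosis genes 8 rose (36.4%) and 4 fell (18.2%), beside 23.3% and 20.0% of all genes. With the ACTB covariate 4 rose and 3 fell. BIRC5, survivin, which also serves in mitosis, gave 89.8, 71.7 and 52.9 with A5 and 443, 502.9 and 362.9 with A5M (-2.45 ± 0.15). Its other probe sets, 202094_at and 210334_x_at, gave smaller falls (-1.35 and -0.96). PMAIP1 (NOXA) fell too (-0.96 ± 0.14). The antiapoptotic BCL2 (0.66 ± 0.25), MCL1 (0.67 ± 0.10) and BCL2L1 (0.61 ± 0.19) and the proapoptotic BAX and BAD (0.75 ± 0.13) rose. Among NF-kB and AP-1 genes 4 of 23 rose (17.4%) and 5 fell (21.7%), near the 23.3% and 20.0% of all genes. The inhibitor NFKBIA was lower (-1.68 ± 0.12). Of 21 TGF-beta pathway genes 6 rose (28.6%) and 3 fell (14.3%), also near those shares. The receptor TGFBR2 (1.66 ± 0.09) and the inhibitory SMAD6 (1.70 ± 0.39) rose most. SMAD6 had low A5M signals (15.6, 34.8 and 5.1), and with 50 added in place of 11 its difference was 0.91. Its 3 other probe sets gave 0.56, 0.32 and 0.05. Cholesterol and fatty acid genes split, with 9 of 20 lower, IDI1 among them (-0.99 ± 0.10), and 4 higher, LSS first (2.04 ± 0.21). Other probe sets of LSS, 211018_at and 211019_s_at, gave 0.30 and 0.38.

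The choice of control mattered for some genes. A5M cells differed from uninduced A5 cells in 637 genes, 295 higher with A5M (3.24% of the genes tested) and 342 lower (3.76%). With these 2 groups fitted alone the count was 149, and the counts below rest on the fit over all groups. Of the 2120 genes higher in A5 than in A5M, 202 (9.53%) were ones in which A5M lay below uninduced cells, and of the 1822 lower genes 181 (9.93%) had A5M above them. Of the 102 genes higher by 4-fold or more, A5M was called below uninduced cells for 22 and above for 5. Of the 97 lower by 4-fold or more, A5M was called above them for 3 and below for 8. These comparisons share the A5M arrays, so each gene's values are given side by side and the shares are only a description. 22 genes were called in opposite directions against the 2 controls.

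PLAC8, a cysteine-rich protein of immune cells, is the clearest case: its signals were 3726.9, 3525 and 3461.8 with A5, 265.8, 309.5 and 177.7 with A5M and 1188.7, 1390.6 and 1407.4 in uninduced cells. Uninduced cells lay between the others, so the difference of 3.81 against A5M became 1.42 ± 0.13 against uninduced cells. ANGPTL4, a lipase inhibitor raised by hypoxia, gave 267.1, 236.8 and 266.4, 23.3, 9.9 and 35.4 and 139.4, 217 and 160.5 in the same order, with A5M minus uninduced at -2.49 ± 0.21, limma adjusted p = 3.56e-08. DEPP1, a FOXO target, had A5M minus uninduced at -2.23 ± 0.13, and NLRP3, the inflammasome sensor, at -2.16 ± 0.16. For these 4 genes A5M stood lowest of the 3 groups. ZNF395 gave 478.9, 418.8 and 415.7 with A5, 146.5, 188.3 and 182.7 with A5M and 965.3, 779.4 and 1017.8 in uninduced cells. It was therefore higher in A5 than in A5M (1.30 ± 0.11) and lower than in uninduced cells (-1.05 ± 0.11, limma adjusted p = 4.79e-08). SLC12A1, a kidney cotransporter gene with low signals, was higher than in A5M (1.47 ± 0.32) and not called against uninduced cells (-0.42 ± 0.32, limma adjusted p = 0.334).

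The controls differed in over 50% of the members of 3 lists, class II and the following 2. Of 32 glycolysis and hypoxia genes 15 were higher and 2 lower in A5 than in A5M (median 0.14), but A5M was lower than uninduced cells for 17 and higher for 1 (median -0.38). Against uninduced cells A5 was higher for 5 and lower for 10 (median -0.15), beside 21.8% of all genes higher and 18.8% lower in that comparison. The list's median thus had opposite signs against the 2 controls. NDRG1, a stress-induced gene, shows it: 2016.7, 2092.2 and 1943.8 with A5 and 510.8, 416.8 and 625.4 with A5M, and 1170.1, 996.6 and 1739.1 in uninduced cells. The glucose transporter SLC2A1 was 1.15 ± 0.14 against A5M and 0.36 ± 0.14 against uninduced cells, and BNIP3, a mitophagy receptor, 0.70 ± 0.25 and -0.23 ± 0.25. Of 26 amino acid response and tRNA synthetase genes 23 were lower in A5 than in A5M (median -0.81), and A5M was above uninduced cells for 16 and below for none (median 0.46). Against uninduced cells 14 were lower and 2 higher (median -0.32). ASNS, asparagine synthetase, gave 543.1, 622.1 and 701.5 with A5 and 1422.3, 1697.5 and 1740.8 with A5M and 829.1, 992.3 and 954.5 in uninduced cells, which again stood between. YARS1, a tRNA synthetase, was -1.68 ± 0.09 against A5M and -1.02 ± 0.09 against uninduced cells, and SLC1A5, a glutamine transporter, -1.58 ± 0.10 and -0.99 ± 0.10. Among replication genes A5M was below uninduced cells in 7 of 35 cases, and the median of mitosis genes was -0.02 between these controls. What set the A5M cells apart was not tested, and culture state, cell population and hairpin cannot be told apart here.

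**Figure D4:**
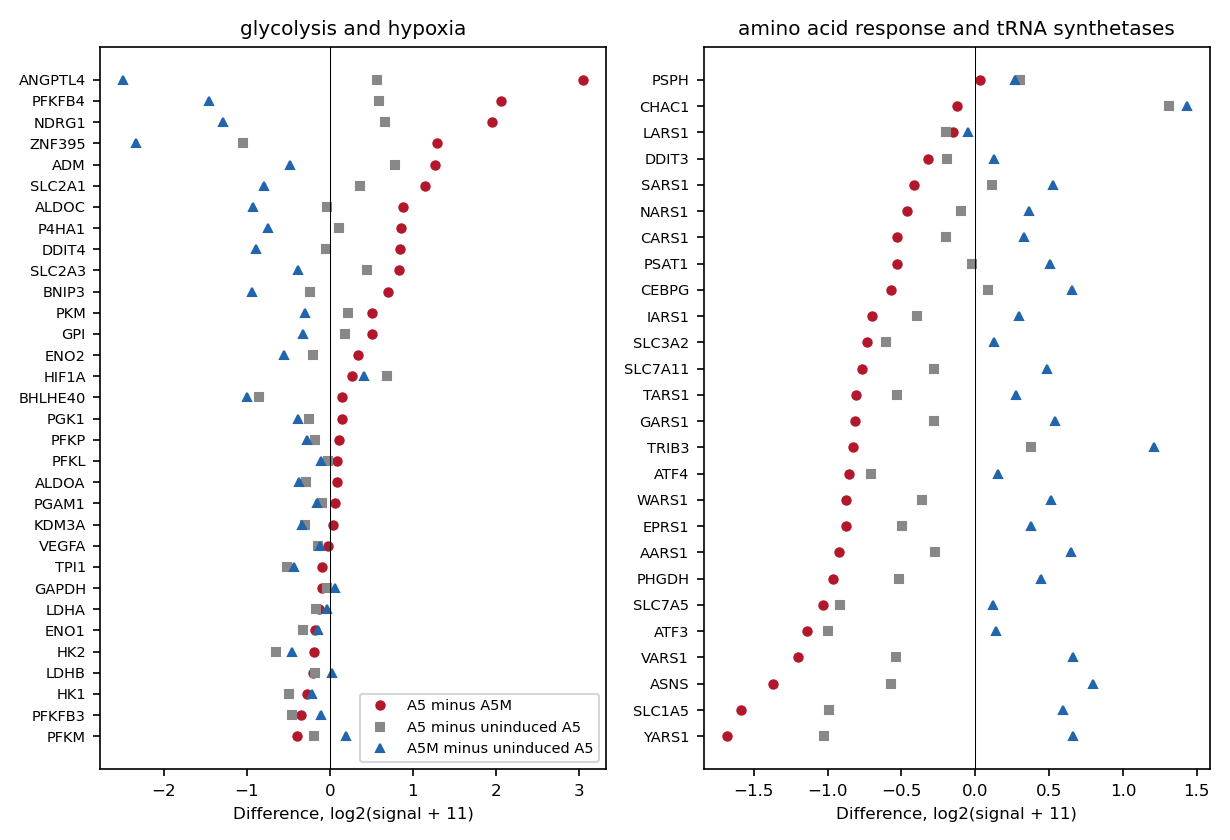
Differences in log2(signal + 11) for each tested gene of the glycolysis and hypoxia list (32 genes, left) and the amino acid response and tRNA synthetase list (26 genes, right): A5 minus A5M (red circles), A5 minus uninduced A5 (grey squares), A5M minus uninduced A5 (blue triangles). On the left most blue triangles lie below 0, on the right most lie above.

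At 72 h, on separate arrays, TS cells with A5 had 1724 genes higher (19.0%) and 1384 lower (15.2%) than the same cells without doxycycline, 3108 in all. The count was 1427 once the ACTB ratio entered as a covariate. Of the genes higher at 84 h against A5M, 1367 were also called higher at 72 h, 64.5% of the 84 h list and 79.3% of the 72 h list. Of the lower genes 1155 were shared, 63.4% and 83.5% of the lists, and 16 genes in each direction were called in opposite ways. Among the genes changed by 4-fold or more, 98 of 102 higher and 96 of 97 lower genes were called in the same direction at 72 h and none in the other. CAPG was higher by 3.03 ± 0.13, SPP1 by 2.86 ± 0.09 and CD52 by 2.96 ± 0.25 at 72 h. ALK was at -2.44 ± 0.11, GINS1 at -2.45 ± 0.12 and CDK1 at -1.52 ± 0.13. Among the 159 named genes 134 had the same sign and a smaller size at 72 h and 20 the same sign and a larger size, SGK1 (-3.90 ± 0.15) and PHLDA1 (3.17 ± 0.16) among the latter. Time and control differ together here and cannot be told apart. Of the 6 genes named for the gap between A5M and uninduced cells, PLAC8 (1.33 ± 0.13, limma adjusted p = 2.41e-08), NLRP3 (0.77 ± 0.16, limma adjusted p = 4.68e-04) and DEPP1 (0.33 ± 0.13, limma adjusted p = 0.0478) were higher at 72 h as well. ANGPTL4 (0.21 ± 0.21, limma adjusted p = 0.499) and SLC12A1 (0.24 ± 0.32, limma adjusted p = 0.637) were not called at 72 h, and ZNF395 was lower (-1.79 ± 0.11, limma adjusted p = 1.10e-11). NDRG1 and ASNS were not called either (0.13 ± 0.14 and 0.08 ± 0.11). By list, mitosis was lower in 52 of 55 members at 72 h, replication in 35 of 35, and class II higher in 8 of 11, while amino acid response genes were lower in 5 and higher in 3 of 26.

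**Figure D5:**
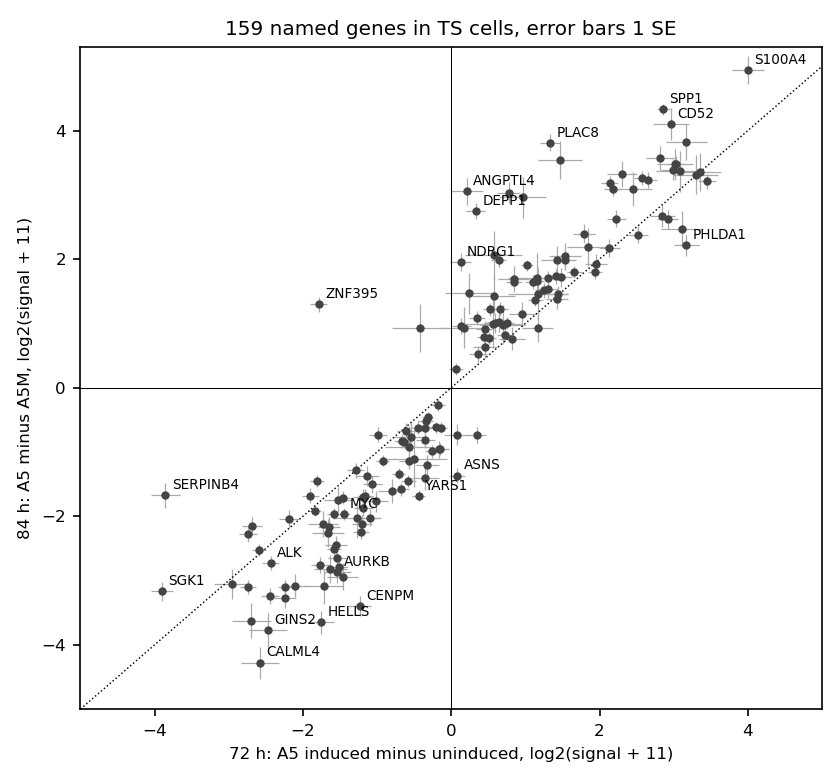
The 159 named genes: the horizontal axis is the difference between induced and uninduced A5 cells at 72 h and the vertical axis A5 minus A5M at 84 h, both in log2(signal + 11), with bars of 1 standard error and a dotted line where the values are equal. Of the 159 genes 154 had the same sign on both axes; ZNF395 lies in the upper left, and ANGPTL4, DEPP1, NDRG1 and PLAC8 lie above the line.

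Markers of other cell types were read on the same arrays. B-cell markers summed to 176.4 to 289.0 with A5 and 194.5 to 234.8 with A5M, with MS4A1 called lower at low signals (-0.92 ± 0.33, limma adjusted p = 0.0269). MS4A1 lost its call with 1 added in place of 11, with the ACTB covariate, and without A5 replicate 2 or 3. Epithelial and stromal markers summed to 386.7 to 472.2 and 339.7 to 397.9, with EPCAM, KRT19 and CDH1 at or below 19.2 on all 6 arrays. KRT18, a keratin, was called higher (80.2, 54.2 and 81.5 with A5 and 42.5, 40.8 and 14.8 with A5M, 0.98 ± 0.30, limma adjusted p = 0.0104) and lost its call without A5M replicate 3. In a wider list of 12 epithelial and stromal genes 3 were higher and 3 lower. The higher ones included KRT18 and COL1A2, a collagen chain (0.93 ± 0.37, limma adjusted p = 0.046), which lost its call in most alternatives. The lower ones included UPK1B (-3.10 ± 0.11) and SERPINB4 (-1.68 ± 0.19), with larger changes. Myeloid markers summed to 1368.1 to 1426.6 with A5 and 2489.7 to 3095.1 with A5M, with CD163 as the largest part. CD163, a scavenger receptor of macrophages, gave 991, 932.6 and 909.6 with A5 and 2253.8, 2247.8 and 2738.7 with A5M (-1.34 ± 0.08, limma adjusted p = 3.67e-12). CD14, LYZ and FCGR1A, which define monocytes, were at or below 26.1 on every array. In a wider list of 12 myeloid genes 4 rose, S100A8, S100A9 (1.93 ± 0.15), the growth factor receptor CSF1R (1.38 ± 0.15) and ITGAX (1.18 ± 0.38), and 2 fell. Markers of ALCL summed to 8500.7 to 9594.9 with A5 and 12630.1 to 14460 with A5M. Of these 6 markers 4 were lower, the target ALK included, and 2 were higher. The higher ones were PRF1 (0.81) and CLU (0.52, limma adjusted p = 6.07e-04). T-cell markers summed to 1580.8 to 1877.6 with A5 and 1316.3 to 1449.8 with A5M, with no overlap, most of it CD3D, and TRBC1 was called higher (0.76), while CD3G, CD7 and LCK were at or below 32.6 on all 6 arrays. The part of these markers in the results above was not tested.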

How the data were processed

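RNA of 33 samples was hybridized to Affymetrix human arrays. The deposited values are linear MAS5 signals, 1 intensity for each probe set, per the submitters' processing notes. No version of MAS5 is given in the sources used here. The 6 arrays compared, and the 3 of uninduced cells, were taken as deposited, each with a trimmed mean of 200.1 by the files' values. Of 22283 probe sets, 19065 have 1 gene symbol, 1043 several, 2107 none and 68 are controls. Probe sets with 1 symbol were kept when their signal reached the array's 40th percentile on at least 3 of 21 hairpin arrays, and the probe set with the highest mean represented each of 9097 genes. Differences of log2(signal + 11) were tested with limma 3.58.1 in R 4.3.3, with 1 mean per group over 21 arrays of 7 groups (15 of TS and 6 of Su-DHL1 cells), a trend in eBayes, and two-sided Benjamini-Hochberg p-values, called below 0.05. The fit was tested on simulated data.

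Genes named by rule were ALK, NPM1, CEBPB and BCL2A1; the 15 highest and 15 lowest called genes whose groups do not overlap; the most changed called members, at most 4, of each of 39 lists (or the largest tested member); and 6 genes called in both A5 against A5M and A5M against uninduced cells. Other list members named were chosen after their values were seen. The groups, members and lists were chosen with earlier results of these data known. Promoters are RefSeq windows of GRCh38.p14, matched by symbol. HLA and histone probe sets can read near-identical copies. Replicate numbers were not used as pairs in the main fit. Deviations of A5 and A5M arrays with the same number correlated at 0.00435, 0.066 and 0.00705, which does not settle whether samples were paired by design. Alternatives covered the pseudocount, the filter, normalization, probe set choice, trend, arrays in the fit, the ACTB ratio, a replicate block and single arrays left out.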

Additional observations from a re-analysis of the deposited data

How the results depend on the processing

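The count of 3942 genes in A5 against A5M was 3467 to 3997 over the other alternatives run and 2400 once the ACTB ratio entered as a covariate. It was 3601 to 3695 with single arrays left out. A fit with the replicate block called 3918 genes, and not every array correlated best with its own number. The count of A5M against uninduced cells was 637, 149 when the 2 groups were fitted alone and 439 to 585 with single arrays left out. At 72 h the count was 1427 with the covariate and 2631 to 2763 with single arrays left out. The ALK difference lay between -2.84 and -2.59 with single arrays left out and at -2.10 as a mean of its probe sets. Of the named genes IL9R changed sign, at -0.36 with the covariate; the cause was not tested. With 1 or 50 in place of 11, the differences of 32 of 158 named genes moved over 1.5 times, each with a low signal in 1 group. The median of all genes moved from 0.06 to 0.00 with quantile normalization.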
